A study of Mus musculus with 8 samples.

Results

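Transcripts of 8 integrin chains and adhesion receptors, Itgae, Itgb7, Itga4, Itgb1, Itgal, Itgb2, Selplg and Cd44, were followed in RNA sequencing libraries of mouse thymocytes. The genes were chosen by symbol, and all 8 had a row in each of the 8 libraries, out of 13073 genes listed in any library. The in vivo libraries were made from freshly sorted thymocytes that lack CD4 and CD8 and carry CD5 and TCRβ, called agonist precursors in the labels. The in vitro libraries were made from CD4 and CD8 double-positive (DP) thymocytes held for 24 h on plates coated with antibodies to CD3 (8 µg/ml) and CD28 (8 µg/ml), followed by a sort of the cells that had become CD4- CD8- (DN). Within each system, 2 libraries carry the label KO (Bcl6fl/fl Cd4cre) and 2 the label WT (Bcl6fl/fl without Cre), so all groups share the floxed Bcl6 allele. Cd4-cre deletes in T lineage cells from the DP stage or shortly before it. Ages, animals per library and whether replicates came from separate mice or cultures are not stated, so the p-values reflect only how far these libraries lay apart, which can be technical spread.

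Total counts were between 14754440 and 23975636 per library. The T lineage markers (Cd3d, Cd3e, Cd3g, Cd247, Cd5, Cd6, Lck and Zap70) were all listed. Their summed FPKM (fragments per kilobase of transcript, scaled to library depth) ran from 1023 to 1466 over the 8 libraries. Bcl6, the targeted gene (chromosome 16, 23965052 to 23988852, minus strand, GRCm38), had 64.6 and 61.0 FPKM in the in vitro libraries labelled KO, against 24.9 and 21.9 in those labelled WT, so its level ran against the genotype labels. In vivo it had 8.81 and 14.4 FPKM in the libraries labelled KO, against 11.5 and 13.9 in those labelled WT. A count per gene takes reads from any exon, the deleted ones or others, and so is no test of the labels. Directions are therefore given by label, libraries labelled KO against libraries labelled WT.

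Integrins are heterodimers of an alpha and a beta chain that hold T cells to other cells and to matrix. The αE chain (CD103, Itgae) pairs only with β7 (Itgb7), and αEβ7 binds E-cadherin on epithelial cells, where intraepithelial lymphocytes reside. The α4 chain (Itga4) pairs with β7 to bind MAdCAM-1 of gut venules, and with β1 (Itgb1) to bind VCAM-1 and fibronectin. The αL chain (Itgal) and β2 (Itgb2) form LFA-1, the receptor for ICAMs. Selplg encodes PSGL-1, the main ligand of P-selectin on leukocytes, and Cd44 encodes the hyaluronan receptor.

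All 8 genes are protein coding, and their coordinates follow the GENCODE annotation of GRCm38, which is mm10. Itgae lies on chromosome 11 (73090583 to 73147446, plus strand), Itgb7 on chromosome 15 (102215995 to 102231944, minus strand) and Itga4 on chromosome 2 (79255426 to 79333123, plus strand). Itgb1 lies on chromosome 8 (128685654 to 128733200, plus strand), Itgal on chromosome 7 (127296260 to 127335138, plus strand) and Itgb2 on chromosome 10 (77530252 to 77565708, plus strand). Selplg lies on chromosome 5 (113818536 to 113832644, minus strand) and Cd44 on chromosome 2 (102811141 to 102901665, minus strand). Haspin, which encodes a mitotic histone kinase, lies within the Itgae span without sharing exon bases with it. The Haspin count was 14.3% to 15.6% of the Itgae count in the 4 in vivo libraries. In vitro it was 25.2% and 23.7% in the libraries labelled KO, against 91.8% and 141% in those labelled WT. Cerkl, on the opposite strand, shares exon bases with Itga4, so without a stated strand setting their reads cannot be told apart. The Cerkl count was between 0.572% and 1.25% of the Itga4 count in the 8 libraries.

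Promoter sequences from RefSeq (GRCm38.p6) were matched for 4 of the 8 genes. The 250 bases before the RefSeq start of Itgb7 and of Itga4 are shown. They were picked because these chains form α4β7 and both transcripts rose in vitro, as given further on. Capitals mark CACCC (KLF type) and TGTGGT (RUNX type) on either strand, and in Itga4 the RUNX-type letters overlap a CACCC. The Itgb7 stretch is chr15:102231936-102232185 on the minus strand and the Itga4 stretch is chr2:79255176-79255425 on the plus strand. The Itgb7 bases from 102231944 to 102231936, which hold the last marked copy, lie inside the GENCODE span of the gene.
Itgb7: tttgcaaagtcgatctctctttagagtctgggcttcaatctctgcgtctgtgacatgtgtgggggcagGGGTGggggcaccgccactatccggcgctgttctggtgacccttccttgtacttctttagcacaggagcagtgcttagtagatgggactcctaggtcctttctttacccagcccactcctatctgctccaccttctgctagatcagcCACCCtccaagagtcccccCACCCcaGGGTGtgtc
Itga4: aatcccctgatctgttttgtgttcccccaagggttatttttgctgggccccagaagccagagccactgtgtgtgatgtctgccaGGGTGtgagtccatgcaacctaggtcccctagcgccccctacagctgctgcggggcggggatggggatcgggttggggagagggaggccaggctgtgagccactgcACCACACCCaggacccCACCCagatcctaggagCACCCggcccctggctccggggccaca
Each stretch held CACCC 4 times, and at least 1 copy occurred in 52.14% of 32536 mouse promoter stretches of the same length. TGTGGT occurred 1 time in Itga4, against 13.96% of all stretches. The BCL6 and STAT type letters TTCNNNGAA and the stricter BCL6 type TTCCNNGAA, searched on both strands, were in neither of these windows nor in those of Itgb1 and Cd44, and were in 7.04% and 4.06% of all stretches. The letters of a motif do not show that a factor binds there.

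In vitro, the transcripts of both CD103 chains and of PSGL-1 were several-fold higher in the libraries labelled KO, α4 and αL rose by less, and β1, β2 and CD44 were not called. Of 7 members tested, 5 rose and none fell (quasi-likelihood test of edgeR, p adjusted by Benjamini-Hochberg over 9658 genes and called under 0.05). Of all genes tested in vitro, 37.8% were called and 20.1% were called higher. The median log2 fold change was 0.69 over the 7 members and 0.00 over all genes tested. FPKM ranges of the libraries labelled KO and WT did not overlap for 6 of the 7, all with the higher level in the libraries labelled KO. Of all tested genes 71.1% did not overlap, and 32.5% did so in that direction.

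Itgae had 14 and 11.4 FPKM in the in vitro libraries labelled KO, against 1.44 and 1.47 in those labelled WT. The groups were far apart and the replicates of each lay close together. Its log2 fold change was 3.15 (SE 0.13, n = 2 per group; edgeR adjusted p = 3.47e-07), an 8.90-fold rise. Its partner Itgb7 had 31.8 and 31.4 FPKM in the libraries labelled KO, against 4.65 and 7.62 in those labelled WT. Its log2 fold change was 2.42 (SE 0.17; edgeR adjusted p = 2.71e-06), a 5.34-fold rise. In bulk libraries, fewer cells that carry a transcript and less of it per cell cannot be told apart. Haspin, inside the Itgae span, also rose in these libraries, with a log2 change of 0.93 (SE 0.22; edgeR adjusted p = 0.00636).

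The α4 chain, which competes with αE for β7, changed less. Itga4 had 26.2 and 21.1 FPKM in the in vitro libraries labelled KO, against 13.1 and 16.8 in those labelled WT. The groups did not overlap, and the log2 fold change was 0.69 (SE 0.13; edgeR adjusted p = 0.00191). The call was lost with all 8 libraries in the fit (edgeR adjusted p = 0.0593). The other partner of α4, Itgb1, had 37.3 and 32.4 FPKM in the libraries labelled KO and 38.6 and 36.7 in those labelled WT. These ranges overlapped, and the log2 fold change was -0.09 with a 95% interval from -0.28 to 0.11 (edgeR adjusted p = 0.470).

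The LFA-1 chains were among the most abundant members in both genotypes. Itgal had 170 and 180 FPKM in the in vitro libraries labelled KO, against 134 and 125 in those labelled WT. It rose by a log2 change of 0.46 (SE 0.10; edgeR adjusted p = 0.00511). Itgb2 had 158 and 169 FPKM in the libraries labelled KO, against 152 and 146 in those labelled WT. Its groups did not overlap, but the log2 fold change of 0.16 (95% interval -0.04 to 0.35) did not pass (edgeR adjusted p = 0.197).

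Selplg had 72.9 and 67.6 FPKM in the in vitro libraries labelled KO, against 20.3 and 24.1 in those labelled WT. Its log2 fold change was 1.69 (SE 0.10; edgeR adjusted p = 1.17e-06), a 3.23-fold rise. Cd44 had 0.616 and 0.721 FPKM in the libraries labelled KO, from 74 and 106 counts, against 0.676 and 0.587 in those labelled WT, from 110 and 65 counts. It stayed below the expression filter (1 FPKM or more in 2 or more libraries) and was not tested. With no filter its log2 fold change was 0.08 (95% interval -0.38 to 0.54; edgeR adjusted p = 0.807).

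Markers of other cells were low in vitro, and some differed between the groups. Of the myeloid and dendritic markers 3 of 8 had rows, with a summed FPKM of 4.42 to 4.58 in the libraries labelled KO and 3.98 to 4.23 in those labelled WT. Of the B cell markers 2 of 6 had rows, with 5.06 to 5.76 FPKM in the libraries labelled KO and 2.85 to 2.95 in those labelled WT. The NK and innate-like T cell sum was 55.8 to 56.5 FPKM in the libraries labelled KO and 30.1 to 30.3 in those labelled WT, nearly all of it Il2rb, a cytokine receptor chain that activated T cells also make. Of the genes behind the DN sort, Cd4 had 10.9 to 11.4 FPKM in the libraries labelled KO and 6.84 to 6.98 in those labelled WT. The 2 CD8 chains went opposite ways. Cd8a had 7.26 to 7.78 FPKM in the libraries labelled KO and 9.67 to 10.9 in those labelled WT. Cd8b1 had 9.44 to 12.4 FPKM in the libraries labelled KO and 5.22 to 8.09 in those labelled WT. The part of these values in the member levels was not tested.

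**Figure D1:**
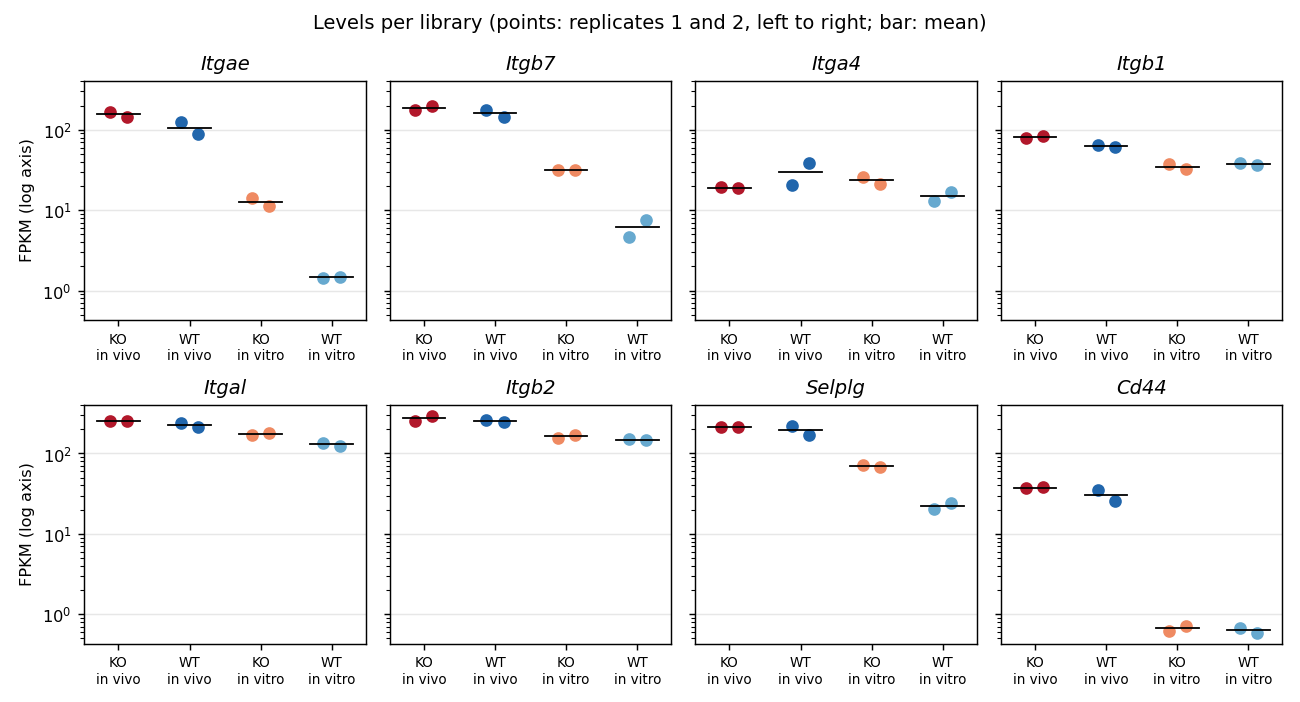
FPKM on a log axis of each member in the 8 libraries, in 4 groups of 2 (KO and WT as labelled), with points for replicates 1 and 2 and a bar for their mean. Itgae, Itgb7, Selplg and Cd44 differ most between the systems, and Itgae runs from 1.44 FPKM in an in vitro library labelled WT to 166 in an in vivo library labelled KO.

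In vivo no member was called. Of 8 members tested, 0 passed (edgeR adjusted p under 0.05 over 10227 genes), where 1.10% of all genes tested were called. At an unadjusted p under 0.05, 2 members passed, Itgae and Itgb1, and 1445 of all genes. DESeq2 called 1 member, Itgae (adjusted p = 0.0402). Itgae was also called by edgeR with the replicate number as a block (adjusted p = 0.0107), though the labels link those libraries by number only. The median log2 fold change was 0.18 over the 8 members and 0.00 over all genes tested. FPKM ranges did not overlap for 5 of the 8 members, with 4 higher and 1 lower in the libraries labelled KO. Of all tested genes 43.4% did not overlap, 22.0% higher and 21.4% lower.

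Itgae had 166 and 146 FPKM in the in vivo libraries labelled KO, against 126 and 87.4 in those labelled WT. Both libraries labelled KO were above both labelled WT, but WT replicate 2 was well below WT replicate 1. The log2 fold change was 0.54 (95% interval 0.09 to 0.99; edgeR adjusted p = 0.253). It was 0.83 without WT replicate 1 (edgeR adjusted p = 0.0497) and 0.31 without WT replicate 2 (edgeR adjusted p = 0.380). Itgb7 had 176 and 195 FPKM in the libraries labelled KO, against 178 and 145 in those labelled WT. The groups overlapped, and the log2 fold change was 0.19 (95% interval -0.13 to 0.51; edgeR adjusted p = 0.641).

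Itga4 had 19.5 and 18.7 FPKM in the in vivo libraries labelled KO, against 20.3 and 38.8 in those labelled WT. A single library, WT replicate 2, stood apart from the other 3. The log2 fold change was -0.64 (95% interval -1.33 to 0.05; edgeR adjusted p = 0.4). It was -0.09 without WT replicate 2 (edgeR adjusted p = 0.731) and -1.03 without WT replicate 1 (edgeR adjusted p = 0.0182). Itgb1 had 78.4 and 82.9 FPKM in the libraries labelled KO, against 65.3 and 61.8 in those labelled WT. Its replicates lay close together, and the log2 fold change was 0.34 (95% interval 0.10 to 0.57; edgeR adjusted p = 0.188).

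Itgal had 257 and 255 FPKM in the in vivo libraries labelled KO and 242 and 215 in those labelled WT, with a log2 fold change of 0.16 (95% interval -0.13 to 0.45). Itgb2 had 256 and 296 FPKM in the libraries labelled KO and 262 and 244 in those labelled WT, with 0.12 (95% interval -0.17 to 0.41). Selplg had 212 and 215 FPKM in the libraries labelled KO and 218 and 171 in those labelled WT, with 0.13 (95% interval -0.21 to 0.47). Cd44, at 37.4 and 37.9 FPKM in the libraries labelled KO and 35.6 and 25.8 in those labelled WT, had 0.29 (95% interval -0.09 to 0.67). All 7 members other than Itga4 were lowest in WT replicate 2 of the 4 in vivo libraries, and Itga4 was highest there.

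Markers of other cells also differed between the in vivo groups. All 8 myeloid and dendritic markers were listed, with a summed FPKM of 338 and 177 in the libraries labelled KO, against 157 and 84.8 in those labelled WT. Most of that sum was Fcer1g, which NK and other innate-like cells also make, with 146 to 187 FPKM in the libraries labelled KO and 64.5 to 110 in those labelled WT. Lyz2 had 15.7 to 109 FPKM in the libraries labelled KO and 10.7 to 25.6 in those labelled WT. Tyrobp had 6.56 to 19.5 FPKM in the libraries labelled KO and 3.91 to 12.1 in those labelled WT. Cd68 had 5.96 to 11 FPKM and Csf1r 0.725 to 7.59 in the libraries labelled KO. In those labelled WT, Cd68 had 4.45 to 6.37 FPKM and Csf1r 0.646 to 1.73. Itgam, Itgax and Flt3 had 2.95 FPKM or less in every in vivo library. All 6 B cell markers were listed, with sums of 25.8 and 18.3 in the libraries labelled KO, against 14 and 4.37 in those labelled WT. The 8 DP thymocyte markers summed to 127 and 144 FPKM in the libraries labelled KO, against 79.5 and 93.2 in those labelled WT. The part of these markers in the member levels was not tested. The myeloid and dendritic sum was lowest in WT replicate 2, as 7 of the members were.

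**Figure D2:**
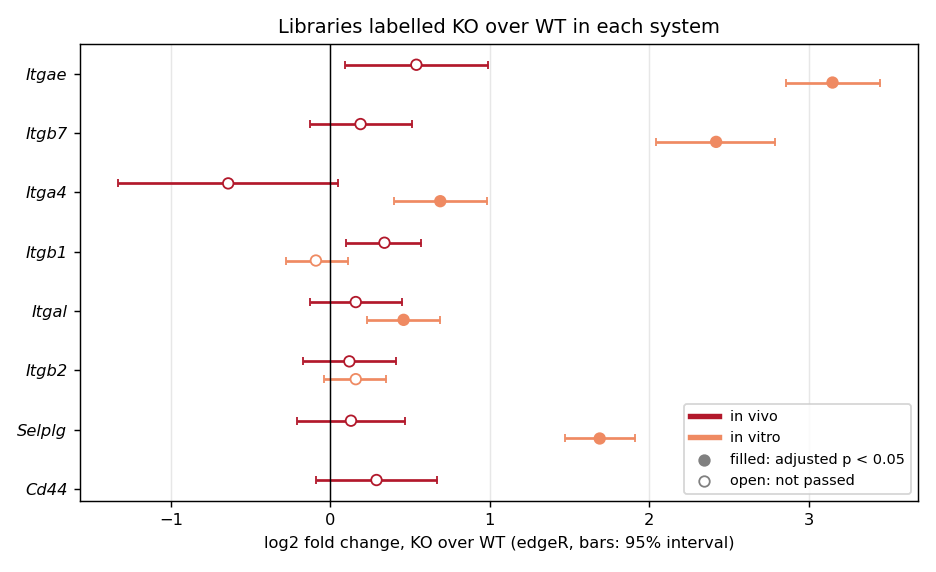
Log2 fold change of the libraries labelled KO over those labelled WT for each member, in vivo and in vitro (edgeR, n = 2 per group), with bars for the 95% interval and filled points where the adjusted p was under 0.05. In vitro Itgae stands at 3.15, Itgb7 at 2.42 and Selplg at 1.69, while all 8 in vivo points are open. Cd44 has no in vitro point because it was below the expression filter.

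The difference between systems was tested directly, as the in vivo log2 fold change minus the in vitro one over all 8 libraries. It was called for 5 of 8 members, 4 lower and 1 higher, where 15.3% of the 10276 genes tested were called, 9.12% lower and 6.14% higher. The labels state that different companies built the libraries of each system, so company and system cannot be told apart. For Itgae the difference was -2.58 (SE 0.27; edgeR adjusted p = 0.00101), for Itgb7 -2.18 (SE 0.26; edgeR adjusted p = 0.00141) and for Selplg -1.52 (SE 0.19; edgeR adjusted p = 0.00168). These 3 were called in every fit that left out a library. In the in vivo libraries labelled WT, each of the 3 was already above its level in the in vitro libraries labelled KO.

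For Itga4 the difference was -1.28 (SE 0.34; edgeR adjusted p = 0.0316), between an in vivo change of -0.64 and an in vitro change of 0.69. It was -0.76 without in vivo WT replicate 2 (edgeR adjusted p = 0.0355). Its call was lost without in vitro WT replicate 1, without either in vitro library labelled KO and without either in vivo library labelled KO (edgeR adjusted p from 0.0602 to 0.152), and with DESeq2 (adjusted p = 0.0591). For Itgb1 the difference was 0.46 (SE 0.14; edgeR adjusted p = 0.0470). That call was lost without any of the libraries except in vivo WT replicate 1, with values from 0.36 to 0.55 over the 8 such fits. Itgal (-0.26, 95% interval -0.61 to 0.08), Itgb2 (0.00, -0.34 to 0.34) and Cd44 (0.22, -0.37 to 0.82) did not pass.

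Levels between the systems were compared in the libraries labelled WT, in vivo over in vitro. All 8 members were higher in vivo (edgeR adjusted p under 0.05), where 68.6% of the 10276 genes tested were called and 34.6% were called higher. FPKM ranges were apart for all 8, all higher in vivo, against 84.8% of tested genes apart and 43.6% apart and higher. The sort, the culture and the library maker all differ between these groups and cannot be told apart. FPKM is scaled within each library, while the fold changes come from counts of all 8 libraries scaled together.

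The largest difference was in Itgae, whose mean was 107 ± 27.3 FPKM in vivo and 1.45 ± 0.0232 in vitro (SD, n = 2 each). Its log2 fold change was 6.18 (SE 0.22; edgeR adjusted p = 9.29e-09). Haspin, inside the Itgae span, was higher in vivo too, with a log2 change of 3.30 (SE 0.24; edgeR adjusted p = 8.97e-07). Cd44 followed, with 30.7 ± 6.93 FPKM in vivo and 0.632 ± 0.063 in vitro, a log2 change of 5.57 (SE 0.19; edgeR adjusted p = 7.07e-09). Itgb7 had 162 ± 23.3 FPKM in vivo and 6.13 ± 2.10 in vitro, a log2 change of 4.72 (SE 0.21; edgeR adjusted p = 3.10e-08). Selplg had 194 ± 33.5 FPKM in vivo and 22.2 ± 2.73 in vitro, a log2 change of 3.11 (SE 0.15; edgeR adjusted p = 4.45e-08).

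The other 4 members differed by about a doubling or less. Their log2 fold changes were 0.96 for Itga4 (SE 0.24), 0.80 for Itgal (SE 0.11), 0.74 for Itgb2 (SE 0.11) and 0.73 for Itgb1 (SE 0.10). The Itga4 value was 0.44 without in vivo WT replicate 2 (edgeR adjusted p = 0.0335), and its call was lost without in vitro WT replicate 1 (0.81; edgeR adjusted p = 0.0573). Markers of other cells differed as well. The 6 NK and innate-like T cell markers summed to 858 and 708 FPKM in the in vivo libraries labelled WT, against 30.1 to 30.3 in the in vitro ones, where Klrb1c, Ncr1, Klrd1 and Klrk1 had no row. The gamma delta T cell markers Sox13 and Blk, the 2 of 4 that had rows, summed to 86.5 and 55.2 FPKM in vivo, against 0.255 to 0.386 in vitro. The myeloid and dendritic markers summed to 157 and 84.8 FPKM in the in vivo libraries labelled WT, most of it Fcer1g, against 3.98 and 4.23 in the in vitro ones. The DP thymocyte markers summed to 79.5 and 93.2 FPKM in vivo, against 29.8 and 35 in vitro, and the B cell markers to 14 and 4.37 FPKM in vivo, against 2.95 and 2.85 in vitro. Their part in the member levels was not tested.

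The order of the levels also differed. In the in vivo libraries labelled KO it ran from Itgb2 through Itgal, Selplg, Itgb7, Itgae, Itgb1 and Cd44 to Itga4, and only the ranges of Itgb2 and Itgal overlapped between neighbours. The in vivo libraries labelled WT had the same order, with overlapping ranges between Itgal and Selplg, Selplg and Itgb7, and Cd44 and Itga4. In the in vitro libraries labelled KO the order was Itgal, Itgb2, Selplg, Itgb1, Itgb7, Itga4, Itgae and Cd44. In the in vitro libraries labelled WT it was Itgb2, Itgal, Itgb1, Selplg, Itga4, Itgb7, Itgae and Cd44. No neighbours overlapped in either in vitro group.

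The balance of paired chains was described by FPKM ratios within each library, and was not tested. An exact permutation test of a single ratio has a smallest two-sided p of 0.333 with groups of 2. The Itgae to Itgb7 ratio came to 0.442 and 0.362 in the in vitro libraries labelled KO, against 0.309 and 0.193 in those labelled WT. In vivo it was 0.939 and 0.750 in the libraries labelled KO, against 0.706 and 0.600 in those labelled WT. In each system the libraries labelled KO had the higher ratio without overlap.

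The Itga4 to Itgb7 ratio came to 0.823 and 0.674 in the in vitro libraries labelled KO, against 2.81 and 2.21 in those labelled WT. Among the 8 libraries, α4 exceeded β7 in FPKM only in the in vitro ones labelled WT. In vivo the ratio was 0.11 and 0.0958 in the libraries labelled KO, against 0.114 and 0.267 in those labelled WT. Itgae made up 34.9% and 35.0% of the summed Itgae and Itga4 FPKM in the in vitro libraries labelled KO, against 9.91% and 8.03% in those labelled WT. In vivo that share was 89.5% and 88.7% in the libraries labelled KO, against 86.1% and 69.2% in those labelled WT.

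The Itgb1 to Itgb7 ratio came to 1.17 and 1.03 in the in vitro libraries labelled KO, against 8.31 and 4.82 in those labelled WT. The Itga4 to Itgb1 ratio came to 0.702 and 0.652 in the in vitro libraries labelled KO, against 0.339 and 0.458 in those labelled WT. In vivo it was 0.249 and 0.226 in the libraries labelled KO, against 0.311 and 0.629 in those labelled WT, the opposite order. The LFA-1 chains stayed near parity, with an Itgal to Itgb2 ratio between 0.857 and 1.08 in all 8 libraries. In vitro that ratio was 1.08 and 1.07 in the libraries labelled KO, against 0.882 and 0.857 in those labelled WT, without overlap. In vivo it was 1.01 and 0.864 in the libraries labelled KO, against 0.923 and 0.882 in those labelled WT, with overlap.

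**Figure D3:**
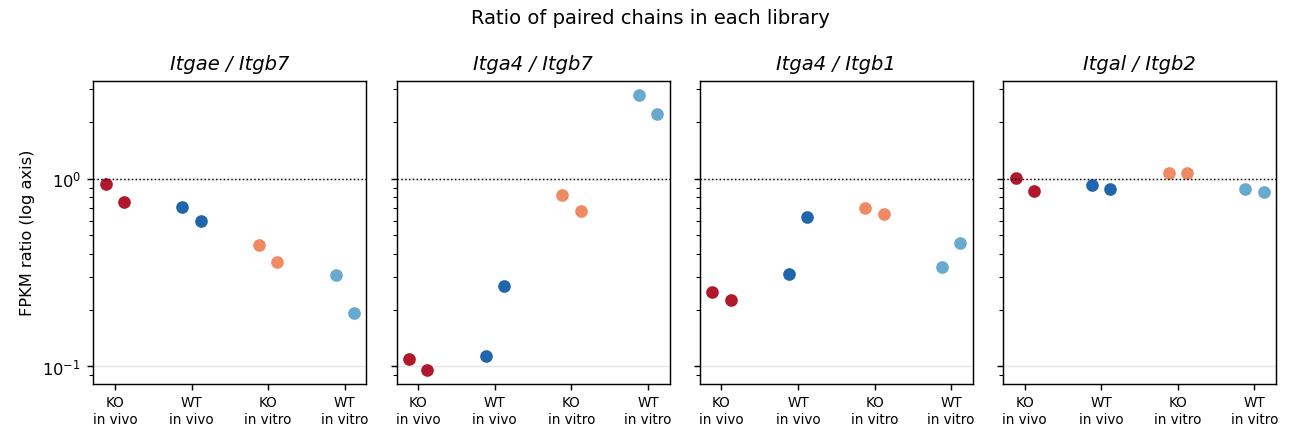
Ratio of FPKM, on a log axis, for 4 chain pairs in each library, with points for replicates 1 and 2 of the 4 groups (KO and WT as labelled) and a dotted line at equal FPKM. The Itga4 to Itgb7 ratio lies below the line in all libraries but the in vitro ones labelled WT, where it is 2.81 and 2.21, and the Itgal to Itgb2 ratio stays between 0.857 and 1.08.

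Other adhesion genes were taken from lists written with earlier results of these data known, and are given as counts. Of all genes tested in vitro 20.1% were called higher and 17.7% lower, and in vivo 0.284% higher and 0.821% lower, with a median log2 fold change of 0.00 in both. Among 20 other integrin chains, 7 were tested in vitro, of which 2 rose and 2 fell, with a median of 0.34. Itgb3, the beta chain of the vitronectin receptor, had 5.33 and 5.22 FPKM in the libraries labelled KO, against 1.16 and 1.45 in those labelled WT. It rose by a log2 change of 2.06 (SE 0.13; edgeR adjusted p = 1.77e-06). Itgb8, which with αV activates latent TGF-β, had 3.74 and 4.14 FPKM in the libraries labelled KO, against 11.2 and 13.0 in those labelled WT. It fell by 1.59 on the log2 scale (SE 0.10; edgeR adjusted p = 1.54e-06). Its partner Itgav fell by 0.47 (SE 0.11). Itga6, a laminin receptor chain, rose by 0.30 (SE 0.10; edgeR adjusted p = 0.0371), a call lost without in vitro WT replicate 1 (0.232), without KO replicate 2 (0.202), with DESeq2 (adjusted p = 0.0867) and with limma on log2(FPKM + 1) (adjusted p = 0.107).

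In vivo, 11 other integrin chains were tested, of which 1 rose and 1 fell, with a median of -0.04. Itgb8 fell there too, with 0.882 and 1.01 FPKM in the libraries labelled KO, against 3.57 and 7.38 in those labelled WT. Its log2 fold change was -2.54 (SE 0.35; edgeR adjusted p = 0.0393). Itga2, a collagen receptor chain, had 6.38 and 6.06 FPKM in the libraries labelled KO, against 3.64 and 2.90 in those labelled WT, a log2 change of 0.92 (SE 0.14; edgeR adjusted p = 0.0471). Both calls were lost without KO replicate 1 (log2 change -2.46 for Itgb8 and 0.88 for Itga2) and without WT replicate 2 (-1.92 and 0.77). Both were also lost with limma on log2(FPKM + 1) (adjusted p = 0.0629 for each). The Itga2 call was lost too with limma on log2(FPKM + 0.1) (adjusted p = 0.0636). With FPKM of at least 1 in every library, Itga2 did not pass (edgeR adjusted p = 0.0531).

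Of 22 gene symbols of integrin activation, the step by which signals inside the cell switch integrins to high affinity, 20 were tested in vitro. There 12 rose and none fell, with a median log2 fold change of 0.32. The list holds genes that oppose activation as well as genes that promote it, so the count gives no direction of activation. Rasgrp2, an exchange factor for the GTPase Rap1, had 12.6 and 11.9 FPKM in the libraries labelled KO, against 2.29 and 3.15 in those labelled WT, a log2 change of 2.21 (SE 0.13; edgeR adjusted p = 1.17e-06). Rasa3, a GTPase-activating protein that opposes Rap1, had 42.7 and 42.0 FPKM in the libraries labelled KO, against 13.0 and 15.8 in those labelled WT, a log2 change of 1.59 (SE 0.10). The adaptor Skap1 rose by 0.88 (SE 0.09) and filamin A (Flna), which binds beta chain tails, by 0.69 (SE 0.11). In vivo, 20 were tested and none was called, with a median of -0.02.

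Of 18 genes that act below bound integrins, 12 were tested in vitro, where 6 rose and none fell, with a median of 0.34. The focal adhesion protein Zyx rose by 0.66 (SE 0.08), the docking protein Nedd9 by 0.57 (SE 0.08), the kinase Ptk2b by 0.45 (SE 0.09) and the actin cross-linker Actn1 by 0.43 (SE 0.09). In vivo, 12 were tested, none was called and the median was 0.02.

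Of 22 gene symbols of integrin ligands and other adhesion molecules, 14 were tested in vitro, where 7 rose and 1 fell, with a median of 0.22. Icam1, the ligand of LFA-1, rose by 1.05 (SE 0.14) and Pecam1 by 0.87 (SE 0.10), while Crtam, a receptor of cytotoxic cells, fell by 1.12 (SE 0.14). In vivo, 16 were tested, none was called and the median was 0.01.

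Of 12 genes for the making of selectin ligands, 9 were tested in vitro, where 5 rose and 1 fell, with a median of 0.27. These include the galactosyltransferase B4galt1 (0.76, SE 0.11), the tyrosine sulfotransferase Tpst2 (0.46, SE 0.09), and the sialyltransferases St3gal6 (0.59, SE 0.18) and St3gal1 (0.45, SE 0.11). The St3gal6 call was lost without in vitro KO replicate 1 (0.33; edgeR adjusted p = 0.209) and the St3gal1 call without WT replicate 1 (0.27; edgeR adjusted p = 0.0963). In vivo, 11 were tested, none was called and the median was 0.06. Of 8 genes of CD44 partners and hyaluronan, 5 were tested in each system. In vitro the membrane linker Msn rose by 0.63 (SE 0.10), while the related Rdx fell by 0.46 (SE 0.08) and the hyaluronidase Hyal2 by 0.35 (SE 0.11; call lost without KO replicate 1, edgeR adjusted p = 0.168, and without WT replicate 1, 0.0781). In vivo none was called, and the median was 0.04 in vivo and -0.18 in vitro.

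**Figure D4:**
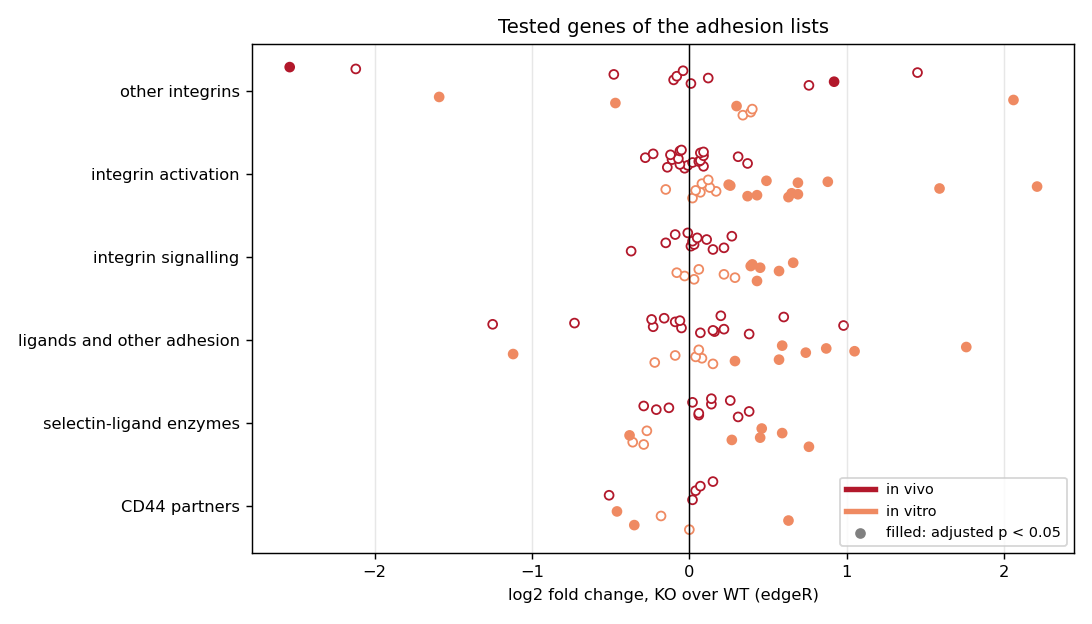
Log2 fold change of the libraries labelled KO over those labelled WT for each tested gene of the 6 adhesion lists, in vivo and in vitro (edgeR, n = 2 per group), filled where the adjusted p was under 0.05. In vitro 33 genes rose and 6 fell, and in vivo 1 rose and 1 fell, both integrin chains.

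The genes whose pattern over the 8 libraries was most like that of each CD103 chain were found by Pearson r of log2 CPM (counts scaled to library depth), as a description. The 8 values fall into systems and genotypes, so a high r mostly reflects those 4 levels. For Itgae they were Nrm (r = 0.9986), Prdm1 (r = 0.9986), Padi2 (r = 0.998), Bcl9l (r = 0.9973) and Chd7 (r = 0.9973). Padi2, for example, had 58.5 to 62.9 FPKM in the in vivo libraries labelled KO, against 35.4 to 52.2 in those labelled WT, and 7.74 to 8.35 in the in vitro libraries labelled KO, against 1.62 to 2.09 in those labelled WT. For Itgb7 they were Ppp1r18 (r = 0.9992), Txk (r = 0.9981), Mapk3 (r = 0.9978), Sema4f (r = 0.9978) and Zbtb7b (r = 0.9976). In the in vitro libraries labelled WT, Prdm1 had only 0.00747 to 0.011 FPKM and Zbtb7b 0.0223 to 0.0438. Prdm1 had 0.19 to 0.333 FPKM in the in vitro libraries labelled KO. The r of these genes thus leans on values near the floor. Among members, Itgae had r = 0.997 with Selplg, 0.995 with Itgb7, 0.986 with Itgal, 0.941 with Itgb2, 0.914 with Cd44 and 0.862 with Itgb1. With Itga4 it was 0.486.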

How the data were processed

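RNA was extracted with TRIzol and libraries were made by different companies for each system, per the labels' protocols. The deposited tables, 1 per library, give each gene's count as a whole number and its FPKM, as the authors computed them. Tools listed in the submitters' processing notes, with no role or order, are RSEM, featureCounts of Subread, Bowtie2, DESeq2 and Trim Galore 0.4.4, and the build listed is mm10. Neither strand setting nor annotation is stated in the sources used here. FPKM per count had the same ratio between systems, within 1%, for 100% of 10430 genes, so the same gene lengths were used.

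The tables held counts, so edgeR 4.0.16 quasi-likelihood tests with TMM scaling were run (R 4.3.3), two-sided, adjusted over all tested genes, on each system's 4 libraries, or on all 8 for comparisons across systems (genes listed in both). Genes were tested with 1 FPKM or more in 2 or more libraries. SE was taken as the size of the log2 fold change divided by the root of F. Intervals use the test's degrees of freedom. The procedure was tested on simulated data, in each comparison with 100 genes changed 2-fold and 100 changed 4-fold. In vitro, 97 and 100 of them were recovered, with 8 false calls among genes left unchanged. In vivo, 90 and 99 were recovered, with 23 false calls. For the difference between systems 81 and 98 were recovered, with 20 false calls. For the levels between systems it was 92 and 98, with 12 false calls. Alternatives used DESeq2 1.42.0, limma 3.58.1, other scalings, filters and pseudocounts, the replicate number as a block, and fits without each library in turn, where a lone library is assumed to vary like the others. The members and lists were chosen with earlier results of these data known. Named genes are the members, Bcl6, up to 4 called genes per list and system by size of change, and the 5 most like Itgae and Itgb7. Haspin and Cerkl were added for their position, and Cerkl, like the markers, by levels only. A gene named by this rule is not reported here.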

Additional observations from a re-analysis of the deposited data

Results flagged for a closer look

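The change between genotypes differed between the systems for 5 members by the test of the difference itself (in vivo log2 fold change minus in vitro log2 fold change, edgeR over all 8 libraries). The difference was -2.58 for Itgae, -2.18 for Itgb7 and -1.52 for Selplg, in the direction of a larger rise in vitro. It was -1.28 for Itga4 and 0.46 for Itgb1, and both of these calls depended on single libraries. Groups of 2 are too small to test for outlying samples. Company and system cannot be told apart in these comparisons.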

How the results depend on the processing

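The count of genes called in vivo, 113, was 505 with DESeq2 (260 higher, 245 lower, against 29 and 84), 550 with all 8 libraries in the fit, 75 and 68 with limma on log2(FPKM + 0.1) and log2(FPKM + 1), 64 with FPKM of at least 1 in every library, and 7 to 279 when a library was left out (WT replicate 2 left out, 7; KO replicate 1, 21; WT replicate 1, 191; KO replicate 2, 279). Members called in vivo were 0, against 1 with DESeq2 and 0 to 2 without a library (2 without WT replicate 1). The in vivo adhesion list calls, 2, were 6 with DESeq2, 6 with all 8 libraries, 1 and 0 with the pseudocounts 0.1 and 1 in limma, 0 with the stricter filter and 0 to 4 without a library. For the difference between systems, 1568 genes were called, and 447 to 1827 without a library (447 without in vitro WT replicate 1, 697 and 746 without in vitro KO replicates 1 and 2, 874 without in vivo KO replicate 1). Members called there were 5, and 3 to 5 without a library. In vitro, 5 members were called, and 4 to 6 under the alternatives. With FPKM rescaled to TPM, all 8 members stayed higher in the in vivo than the in vitro libraries labelled WT, and log2 ratios of means moved to 0.95 for Itgb1, 1.01 for Itgal and 0.96 for Itgb2, against 0.75, 0.82 and 0.76.

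Uncalled values near 0 changed sign. In vitro Itgb1 ran from -0.19 to 0.01 without a library. In vivo Selplg ran from -0.03 to 0.32 and Bcl6 from -0.52 to 0.16. For the difference, Itgb2 was -0.02 with the stricter filter, -0.01 with both limma settings and -0.10 to 0.10 without a library, and Cd44 was -0.01 to 0.50. The causes were not tested.

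Replicate numbers share only a number in the labels. Deviations of same-numbered libraries correlated at 0.459 in vivo and -0.305 in vitro. With the replicate block, calls in vivo were 1078, members called 1 (Itgae, 0.56, edgeR adjusted p = 0.0107) and list calls 11, and the difference for Itgb2 was 0.00. A crossed block in vitro, chosen after seeing the data, gave 4997 calls against 3649.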
